A study of Mus musculus with 3 samples.

Results

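The cells described here are connective tissue precursors (mesenchyme) of the mouse cochlea at embryonic day 15 (E15) that carried RNA of the transcription factor Osr1 together with RNA of Aard, of the secreted ligand Wnt6, or of both. They were 814 of 3697 E15 mesenchymal cells, out of 7131 E15 cell barcodes and 15272 barcodes in the study. RNA of single cells from the whole cochlea (the hearing part of the inner ear) of wild-type C57BL/6J mice was counted in droplet libraries. The groups were E15, with 2 libraries, and postnatal day 7 (P7), with 1 library. No treatment or engineered allele is given for any group, the number of animals per library is not given, and the cochlear cells were taken without selection for a cell type. The E15 libraries are called replicates 1 and 2, and paired values below are given in that order.

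Members were chosen by their own counts of unique molecular identifiers (UMIs, which count captured RNA molecules). A cell entered the E15 mesenchyme with at least 500 genes, at most 20% mitochondrial UMIs, no UMI of Epcam, Cdh5, Sox10 or Ptprc (markers of epithelium, endothelium, glia and immune cells) and at least 3 UMIs of the collagen genes Col1a2 and Col3a1 together. Members also had at least 1 UMI of Osr1 and at least 1 UMI of Aard and Wnt6 together. Osr1 was thus required, and either of the other genes was enough. Levels of these genes, and of the collagens and the excluded markers, follow from the choice and are given as a description. Dab2 was named as a marker of these cells from the same libraries, so its E15 levels are also given without a test.

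The mesenchyme around the embryonic inner ear builds the otic capsule, the spiral ligament and spiral limbus and the lining of the fluid spaces. Osr1 is an odd-skipped zinc-finger transcription factor of embryonic mesenchyme, and Wnt6 is a Wnt ligand, one of the lipid-modified secreted proteins that act on Frizzled receptors of nearby cells. Aard encodes a small protein rich in alanine and arginine. Dab2 is an adaptor protein that couples cargo receptors to clathrin-coated pits. Crabp2, a cytoplasmic retinoic acid binding protein, and Aldh1a2, the enzyme that makes retinoic acid in embryonic mesenchyme, are known from the arachnoid layer of the meninges, where Wnt6 is found too.

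Promoter sequence, from 250 bases before to 50 bases after a RefSeq transcript start (GRCm38.p6), is shown for genes with more RNA in members. For Osr1, Aard and Wnt6 this follows from the choice of cells. Of 6 genes looked up, 3 were matched (Wnt6, Dab2 and Aldh1a2, with 2 starts for Dab2), and Osr1, Aard and Crabp2 were not. Capitals mark GGGCGG, the GC box, on either strand. TATAAA, the TATA box, and AGGTCA, a half-site bound by nuclear receptors, were also searched on both strands and were in none of the windows. The Wnt6 window lies at chr1:74771642-74771941 and the Aldh1a2 window at chr9:71215539-71215838, and the Dab2 windows lie at chr15:6386498-6386797 and chr15:6299539-6299838, all on the plus strand. The 3 windows richest in CG dinucleotides read, 5′ to 3′:
Wnt6: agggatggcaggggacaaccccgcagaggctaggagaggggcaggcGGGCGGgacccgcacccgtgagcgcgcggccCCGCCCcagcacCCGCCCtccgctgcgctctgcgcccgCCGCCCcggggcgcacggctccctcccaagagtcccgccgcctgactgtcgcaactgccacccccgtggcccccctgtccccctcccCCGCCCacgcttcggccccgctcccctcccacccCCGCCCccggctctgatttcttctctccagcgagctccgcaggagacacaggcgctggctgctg
Dab2: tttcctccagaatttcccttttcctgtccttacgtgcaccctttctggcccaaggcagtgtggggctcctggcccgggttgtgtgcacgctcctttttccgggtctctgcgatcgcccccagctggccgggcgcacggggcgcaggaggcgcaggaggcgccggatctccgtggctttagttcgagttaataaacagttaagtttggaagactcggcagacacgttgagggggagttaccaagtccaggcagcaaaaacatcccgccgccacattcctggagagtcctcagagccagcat
Aldh1a2: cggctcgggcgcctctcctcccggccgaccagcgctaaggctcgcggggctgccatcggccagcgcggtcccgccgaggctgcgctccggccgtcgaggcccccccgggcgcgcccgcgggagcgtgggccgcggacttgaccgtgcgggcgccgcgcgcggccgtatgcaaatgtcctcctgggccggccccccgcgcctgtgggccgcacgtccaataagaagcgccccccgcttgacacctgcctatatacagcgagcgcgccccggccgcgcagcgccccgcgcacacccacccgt
The Wnt6 window held 6 GC boxes and 31 CG dinucleotides, more CG than 89.4% of 32851 mouse promoter windows of the same length. The Aldh1a2 window held 50 CG dinucleotides, more than 99.1% of windows, and no GC box. The 2 Dab2 windows held 19 and 2 CG dinucleotides and no GC box, so the Dab2 starts differed widely in CG content. Over all 32851 windows, 35.7% held a GC box, 13.6% a TATA box and 16.3% the half-site, and the median window had 7 CG dinucleotides.

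Members numbered 403 of 1630 mesenchymal cells in replicate 1 (24.7%, exact 95% interval 22.6% to 26.9%) and 411 of 2067 in replicate 2 (19.9%, 18.2% to 21.7%). These intervals cover counting error only. Members were slightly deeper, with a median of 15701 and 12406 UMIs per cell, against 15122 and 11081 UMIs in the other mesenchyme. When each cell was first thinned to 5000 UMIs, 9.45% and 10.5% of cells met the rule, so the share depends on depth. Groups compared below after thinning to 5000 UMIs were chosen again on the thinned counts, with 147 and 198 members. Many of the members named here thus counted as the rest there. Many members stood just inside the rule: 116 and 138 had exactly 1 Osr1 UMI, 154 and 148 had exactly 1 UMI of Aard and Wnt6, and 56 and 68 had only 1 of each. Just outside it lay 377 and 425 cells with Osr1 but no Aard or Wnt6, called Osr1-only cells, and 203 and 294 cells with Aard or Wnt6 but no Osr1, called Aard/Wnt6-only cells.

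Most members carried Aard rather than Wnt6. Aard was seen in 380 and 392 members and Wnt6 in 120 and 111, and 97 and 92 members had both. Osr1 averaged 232 and 239 CPM (UMIs scaled to 1e+06 per sum of cells) in members, and 44.4 and 47.4 CPM in the rest. The same sums gave Aard 171 and 217 CPM in members, against 18.6 and 26.3 CPM in the rest. Wnt6 had 41.5 and 46.7 CPM in members, against 2.39 and 2.43 CPM in the rest. Dab2, which the rule did not use, had 226 and 214 CPM in members, against 55.4 and 52.8 CPM in the rest. Both member values of Dab2 lay above both values of the rest, which largely follows from its naming as a marker in these libraries.

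Signal of the rule's genes was low in other cochlear cells that were low in collagen RNA. These classes had at least 3 UMIs of Epcam, or any UMI of Sox10, Ptprc or Cdh5. They also had under 3 UMIs of Col1a2 and Col3a1 together. Cells of these types with more collagen RNA were left out, which may lower the shares. Osr1 was seen in 0.913% and 2.25% of 219 and 267 Epcam-positive epithelial cells and in 0.94% and 1.58% of 319 and 379 Sox10-positive glial cells, against 47.9% and 40.4% of mesenchymal cells. The median depths were 13305 and 9152 UMIs in the epithelial cells, 14389 and 10576 in the glial cells and 15256 and 11445 in the mesenchyme. Aard was seen in at most 3.17% of cells in any of the 4 other classes and Wnt6 in at most 6.67%, the latter in 3 of 45 Ptprc-positive cells. Dab2 was not particular to mesenchyme: 40.0% and 46.7% of Ptprc-positive cells and 42.9% and 23.8% of Cdh5-positive endothelial cells carried it.

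Genes of mesenchyme outside the rule were also present in members. Both groups had passed the same collagen and marker limits, and levels in other cell types are not given. These values thus do not test identity. The periotic transcription factor Pou3f4 had 442 and 523 CPM in members, against 418 and 437 CPM in the rest, and Tbx18, a T-box factor of periotic mesenchyme, had 254 and 239 CPM in members, against 244 and 241 CPM in the rest. Prrx1, Twist1 and the receptor Pdgfra were also present in every sum, and none of these 5 genes was called different from the rest without thinning. Twist1 was called lower in members after thinning to 5000 UMIs. Collagen Col1a1 was lower, at 18.9 and 33.5 CPM in members, against 61 and 89 CPM in the rest. Its log2 fold change was -1.54 ± 0.071 (SE; adjusted p = 8e-18).

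Markers of other cell types were low, close to the rest or mixed. Endothelial genes summed to 142 and 135 CPM in members, against 129 and 127 CPM in the rest. Neuronal genes summed to 43.6 and 54.5 CPM in members, against 43.6 and 45.9 CPM in the rest. Of 5 tested neuronal genes, Nefl was higher in members and 3 were lower (Tubb3, Elavl3 and Stmn2). Macrophage genes summed to 0.141 and 0 CPM in members, against 0.78 and 1.22 CPM in the rest, and epithelial genes to 8.88 and 8.32 CPM, against 8.24 and 9.44 CPM. The 5 glial genes summed to 11.99 and 16.1 CPM in members, against 44.8 and 44.7 CPM in the rest, nearly all Fabp7. The 8 pericyte and smooth muscle genes summed to 29.5 and 24.4 CPM in members, against 153 and 138 CPM in the rest. Acta2 was at 0 in members of both libraries. Haemoglobin RNA was uneven between the libraries, at 3159.8 and 35.6 CPM in members and 1079 and 1862 CPM in the rest. None of 4 haemoglobin genes was called against the rest, but all 4 were lower in members among cells of 10000 to 30000 UMIs and after thinning to 5000 UMIs, and 3 of 4 were lower against the cells with Aard or Wnt6 but no Osr1. Its part in the results below was not tested.

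Levels of all genes were then compared between members and the rest of the E15 mesenchyme within each library. A gene was called with a Benjamini-Hochberg adjusted p under 0.05 by edgeR's quasi-likelihood test with the library as a block, a fitted fold of at least 1.5 and the same direction in both libraries. A gene that was not called may still have passed the p threshold with a smaller fold. Fold changes are log2 with the standard error (SE). Of 13431 genes tested, 891 (6.63%) were called: 436 (3.25%) were higher and 455 (3.39%) lower in members, and the median change over all genes was 0.01. The p-values measure how much the difference between members and the rest varied between these 2 libraries. The libraries are not stated to come from separate litters, and the genes were measured in the same cells that the rule sorted. DESeq2 called 164 higher and 158 lower, and a test against a fold of 1.5 called 163 and 140.

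**Figure D1:**
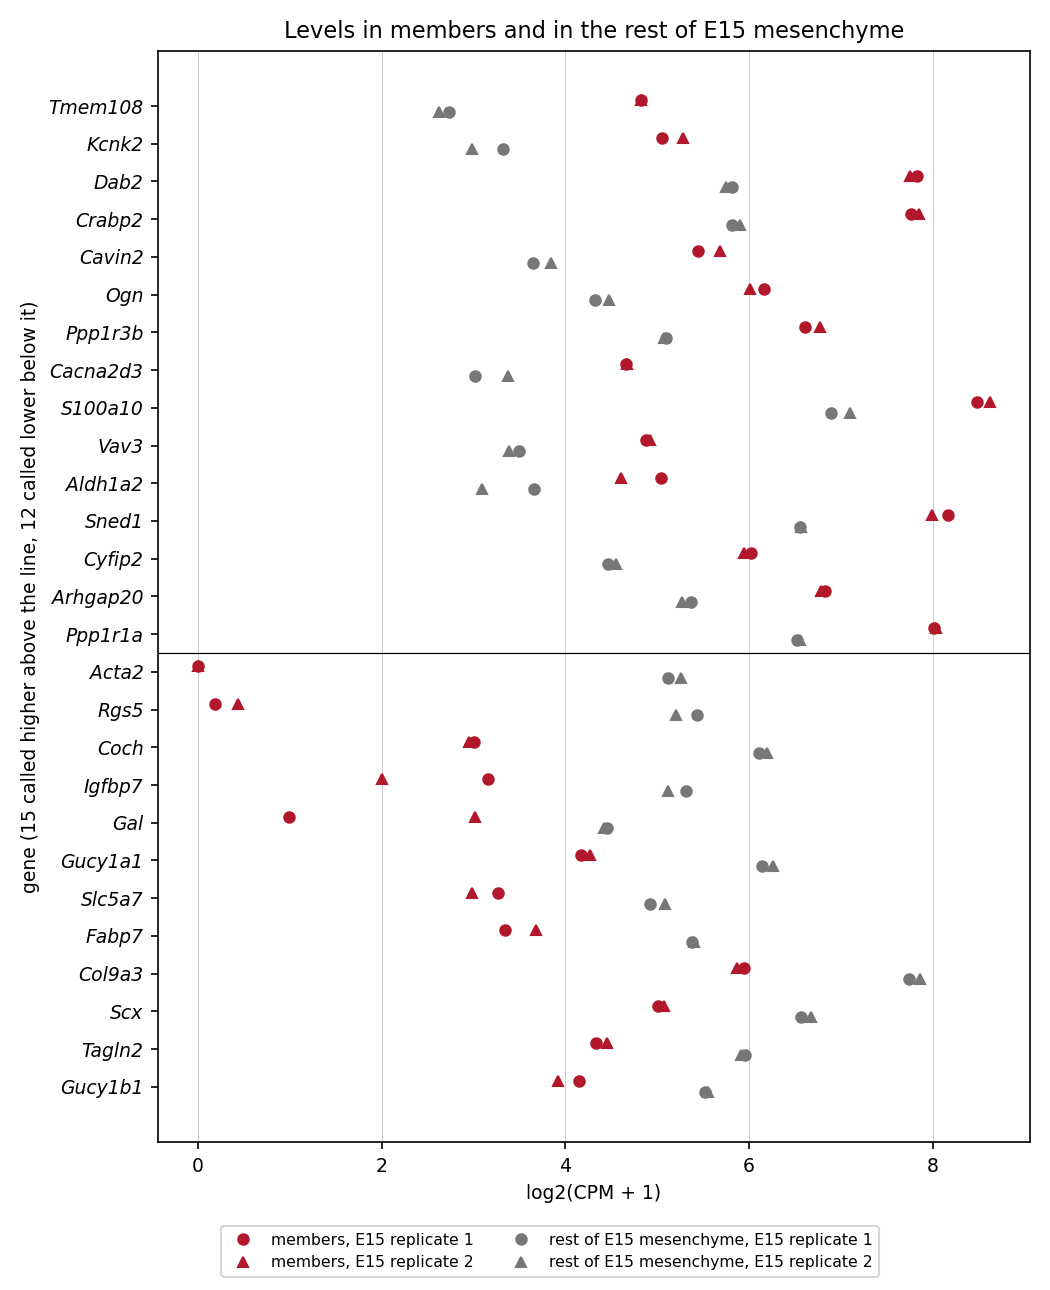
Each row is 1 of the 27 genes with the largest called change; the x axis gives log2(CPM + 1) in members (red) and in the rest of the E15 mesenchyme (grey), circles for replicate 1 and triangles for replicate 2. In every row both member values lie on the same side of both values of the rest, which largely follows from picking called genes. Acta2 lies at 0 in members.

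The genes with the largest change upward in members were of mixed kinds. Tmem108, a membrane protein studied in neurons, had 27.2 and 27.3 CPM in members, against 5.66 and 5.16 CPM in the rest (2.32 ± 0.14, adjusted p = 3.9e-15). Kcnk2, the two-pore potassium channel TREK, had 32.2 and 37.9 CPM in members, against 8.97 and 6.91 CPM in the rest (2.12 ± 0.13, adjusted p = 8.7e-15). Crabp2 had 216 and 229 CPM in members, against 55.3 and 58.7 CPM in the rest (1.96 ± 0.054, adjusted p = 1e-23). For each of these genes the lower member value was above the higher value of the rest, which largely follows from picking called genes. The libraries differed little.

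Further genes followed. Cavin2, a coat protein of caveolae, had 42.6 and 50.5 CPM in members, against 11.6 and 13.4 CPM in the rest (1.89 ± 0.10). Ogn, the small leucine-rich proteoglycan osteoglycin, had 70.6 and 63.4 CPM in members, against 19.1 and 21.2 CPM in the rest (1.74 ± 0.077). S100a10, the annexin A2 partner, had 356 and 393 CPM in members, against 118 and 136 CPM in the rest (1.56 ± 0.053). The matrix protein gene Sned1 had 285 and 254 CPM in members, against 92.9 and 93.6 CPM in the rest (1.52 ± 0.059), and Vav3, an exchange factor for small GTPases, had 28.5 and 29.2 CPM in members, against 10.3 and 9.49 CPM in the rest (1.54 ± 0.12). The phosphatase-1 regulators Ppp1r3b and Ppp1r1a changed by 1.63 ± 0.055 and 1.48 ± 0.056, the calcium channel subunit Cacna2d3 by 1.57 ± 0.13, Cyfip2 by 1.52 ± 0.074 and Arhgap20 by 1.502 ± 0.048. Groups did not overlap for any of them, which again largely follows from the choice. Their edgeR adjusted p-values lay between 6.7e-22 (Arhgap20) and 4.6e-11 (Cacna2d3).

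Some retinoic acid genes were higher in members. Of 14 tested genes, 4 were higher and 2 lower, with a median change of 0.19. Aldh1a2 had 32 and 23.4 CPM in members, against 11.6 and 7.54 CPM in the rest (1.53 ± 0.12, adjusted p = 7e-12). Its libraries differed, but each member value lay above both values of the rest. Stra6, the cell-surface receptor that takes up retinol, had 10.2 and 8.85 CPM in members, against 2.98 and 3.07 CPM in the rest (1.65 ± 0.20), and Crabp1, the second cytoplasmic binding protein, had 156 and 154 CPM in members, against 72.6 and 73.1 CPM in the rest (1.09 ± 0.048). Cyp26b1, which degrades retinoic acid, was lower, at 0.423 and 0.354 CPM in members, against 2.15 and 1.31 CPM in the rest (-2.15 ± 0.55, adjusted p = 0.0039), and so was the receptor gene Rxrg (-1.60 ± 0.26). The receptors Rara, Rarb and Rarg were not called, with changes of 0.19, 0.28 and 0.06.

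Of 13 tested genes known from the arachnoid and its barrier layer, 6 were higher and none lower, with a median of 0.71. After thinning every cell to 5000 UMIs 3 of 11 were higher (Aldh1a2, Crabp2 and Ptgds), and Dpp4 was not called once pericyte-type cells were left out of the rest. Besides Crabp2 and Aldh1a2 these were Ptgds, the prostaglandin D synthase of the leptomeninges, at 3.53 and 2.66 CPM in members, against 0.439 and 0.341 CPM in the rest (2.95 ± 0.42), the organic anion transporter Slc22a6 at 9.31 and 8.5 CPM in members, against 4.34 and 3.89 CPM in the rest (1.11 ± 0.20), the tight-junction protein Cldn11 at 37.8 and 38.9 CPM in members, against 22.5 and 23.9 CPM in the rest (0.72 ± 0.087) and Dpp4 (1.27 ± 0.43). Ptgds, Slc22a6 and Dpp4 were thus low in absolute terms. The meningeal transcription factors Foxc1 and Foxc2 were present in both groups, with changes of 0.21 and 0.02, and Zic1 was at -0.56, none called. Slc47a1, a transporter that marks arachnoid barrier cells, was near or at 0 in both groups (0.141 and 0 CPM in members and 0.146 and 0 CPM in the rest).

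Markers of the other meningeal layers were mixed. Of 11 genes of pia and perivascular fibroblasts, 2 were higher and 5 lower. Bmp7 had 73 and 73.6 CPM in members, against 33.4 and 32.5 CPM in the rest (1.15 ± 0.061) and the basement membrane protein Nid2 had 64.9 and 74.9 CPM in members, against 31.7 and 30.7 CPM in the rest (1.15 ± 0.067). The basement membrane collagens were lower: Col4a1 had 177 and 164 CPM in members, against 384 and 417 CPM in the rest (-1.24 ± 0.054), and Col4a2 changed by -0.95 ± 0.056. Of 6 dural genes, the C-type natriuretic peptide gene Nppc (1.02 ± 0.12) and Smoc2 (1.23 ± 0.21) were higher, and Mgp, an inhibitor of calcification, was lower, at 159 and 115 CPM in members, against 338 and 349 CPM in the rest (-1.34 ± 0.072).

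Among secreted signals, members had more Bmp4 and Wnt5a and less of several others. Of 29 tested genes of the BMP and TGF-beta pathways, 4 were higher and 1 lower, with a median of -0.12. Bmp4 had 68.4 and 68.2 CPM in members, against 22.6 and 26.6 CPM in the rest (1.47 ± 0.072, adjusted p = 2.8e-17). The co-receptor Tgfbr3 changed by 0.66 ± 0.10, and the low-level Bmp3 by 0.97 ± 0.32. Tgfb1 was lower, at 0.564 and 0.885 CPM in members, against 3.61 and 4.09 CPM in the rest (-2.42 ± 0.39). The BMP response genes Id1, Id2 and Id3 were not called in this comparison (-0.15, -0.53 and -0.12). Id2 was called lower in members among cells of 10000 to 30000 UMIs, after thinning to 5000 UMIs, and against Aard/Wnt6-only cells. In the first of these settings 5 of 29 genes of these pathways were higher and 2 lower. After thinning, 3 of 28 were higher and 5 lower (Bmp2, Gdf10, Bmpr2, Id2 and Smad7).

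Other Wnt genes are given by role. Of 12 tested ligands and secretion factors besides Wnt6, 5 were higher and 2 lower. Wnt5a, a ligand of the noncanonical branch, had 113 and 109.6 CPM in members, against 64.7 and 59.5 CPM in the rest (0.84 ± 0.043), Wls, which carries Wnt proteins to the cell surface, had 168 and 162 CPM in members, against 110.2 and 106 CPM in the rest (0.61 ± 0.053), and Rspo1, an amplifier of Wnt signalling, had 9.31 and 8.32 CPM in members, against 2.88 and 3.16 CPM in the rest (1.54 ± 0.21). Wnt9a (0.91 ± 0.28) and Wnt16 (1.83 ± 0.53) were higher at levels under 5 CPM. Rspo3 was lower (-0.94 ± 0.19), and Wnt2 had 1 UMI in members against 132 UMIs in the rest, a ratio of 41.0-fold lower with a 95% counting interval of 7.23 to 1630.3. Of 17 receptors, Lgr6 (1.42 ± 0.32) was higher and Fzd9 (-1.12 ± 0.17) lower. Of 13 inhibitors, Sfrp2 was higher, at 143 and 161 CPM in members, against 78.8 and 91.6 CPM in the rest (0.83 ± 0.05), while Dkk1, Notum and Apcdd1 were lower (-1.81, -1.02 and -0.91). Of 15 target genes of the canonical pathway 1 was called: Nkd2 was lower (-0.81 ± 0.12), and Lef1 and Ccnd1 stood at -0.23 and 0.44 with no call. After thinning to 5000 UMIs 3 of these 15 were lower (Nkd2, Sp5 and Twist1) and none higher.

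Transcription factors of mesenchyme included the paralogue of Osr1. Of 41 tested, 6 were higher and 3 lower. Osr2 had 9.87 and 11 CPM in members, against 1.9 and 2.58 CPM in the rest (2.22 ± 0.21, adjusted p = 6.5e-10). Klf4, a zinc-finger factor, had 124 and 134 CPM in members, against 57.6 and 57.5 CPM in the rest (1.16 ± 0.042), and the orphan nuclear receptor Nr2f2 had 196 and 192 CPM in members, against 96.1 and 101 CPM in the rest (0.98 ± 0.055). Ebf3, Ebf2 and Nr2f1 were higher by 0.94, 0.89 and 0.71. Tbx2 was nearly absent from members, at 0.705 and 0.354 CPM in members, against 8.63 and 7.59 CPM in the rest (-3.88 ± 0.35), and Tcf15 (-1.24 ± 0.12) and Zic4 (-0.89 ± 0.29) were lower.

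Growth, guidance and hedgehog genes were mostly higher where they were called. Of 17 insulin-like growth factor and imprinted genes, 5 were higher and 1 lower. Cdkn1c, which encodes the cell cycle inhibitor p57, had 1231 and 1379 CPM in members, against 624 and 731 CPM in the rest (0.94 ± 0.023, adjusted p = 2.5e-25), and Plagl1 had 52.3 and 49.7 CPM in members, against 20.2 and 16.8 CPM in the rest (1.45 ± 0.084). Meg3 (0.92), Igfbp3 (1.45) and Igf1 (0.78) were also higher. Igfbp7 was lower, at 7.9 and 3.01 CPM in members, against 38.9 and 33.8 CPM in the rest (-2.69 ± 0.16), but was no longer called when cells with at least 3 UMIs of pericyte genes were left out of the rest (-0.56, adjusted p = 0.092). Of 28 guidance genes 4 were higher and 2 lower, led by the semaphorins Sema3d (2.09 ± 0.23) and Sema3c (1.86 ± 0.26), with the netrin receptor Unc5b lower (-1.47 ± 0.13). Of 10 hedgehog genes 3 were higher and none lower, among them the co-receptors Gas1 (0.67 ± 0.054) and Cdon (0.68 ± 0.16), and the target Gli1 was at -0.02 with no call. Of 15 FGF genes, Fgf18 was higher (1.40 ± 0.17) and Fgf9 and Fgfr3 lower (-1.53 ± 0.26 and -1.19 ± 0.33).

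Matrix genes split. Of 27 tested genes of the fibrillar matrix besides Col1a2 and Col3a1, 4 were higher and 4 lower. Besides Ogn, the microfibril gene Fbn2 was higher, at 563 and 568 CPM in members, against 320.2 and 311 CPM in the rest (0.84 ± 0.04), as were the crosslinking enzymes Loxl1 (0.91 ± 0.067) and Lox (0.71 ± 0.073). Col1a1, Postn (-1.08 ± 0.091), Fbln1 (-0.90 ± 0.056) and Fbln2 (-0.70 ± 0.049) were lower. Of 16 genes of receptor endocytosis, the route in which Dab2 works, 1 was higher, Clu (1.29 ± 0.11), and 3 were lower, among them Dab1 (-0.97) and Lrp8 (-0.72). The receptor Lrp1 was at 231 and 229 CPM in members, against 191 and 179 CPM in the rest and was not called.

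Most cartilage genes were lower in members. Of 12 tested, 10 were lower and none higher, with a median change of -1.02, and 6 of 11 were lower after thinning every cell to 5000 UMIs. Sox9, the master regulator of cartilage, had 99.8 and 107 CPM in members, against 205 and 204 CPM in the rest (-0.99 ± 0.057, adjusted p = 2.6e-15). Its partners Sox5 and Sox6 changed by -0.81 and -0.95. Col9a3, a collagen IX chain, had 60.5 and 57.4 CPM in members, against 212 and 230.4 CPM in the rest (-1.91 ± 0.062), and Col9a1 and Matn4 changed by -1.45 ± 0.059 and -1.51 ± 0.12. Acan, the aggrecan gene, had 1 UMI in members against 94 UMIs in the rest. Col2a1, the main cartilage collagen, was present throughout, at 677 and 677 CPM in members, against 891 and 862 CPM in the rest (-0.38, not called). The tendon factor Scx was lower, at 31.3 and 32.6 CPM in members, against 93.8 and 101 CPM in the rest (-1.61 ± 0.057), as the 1 called gene of 6 tendon and ligament genes, and of 6 bone genes 2 were lower, among them Runx2 (-0.71 ± 0.20).

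Coch, which encodes cochlin of spiral ligament fibrocytes, was among the genes lowest in members. It had 7.05 and 6.73 CPM in members, against 67.9 and 72 CPM in the rest (-3.34 ± 0.10, adjusted p = 1.2e-22). Of 12 tested fibrocyte genes, Coch and the carbonic anhydrase Car3 were lower, and Kcnk2, the sodium pump subunit Atp1b1 and Cldn11 were higher. Otor, the otoraplin of cochlear mesenchyme, had 735 and 752 CPM in members, against 849 and 1021 CPM in the rest with no call (-0.33). The neuropeptide gene Gal, at 0.987 and 7.08 CPM in members, against 20.8 and 20.4 CPM in the rest (-2.47), and the choline transporter gene Slc5a7 (-1.99 ± 0.14) were also lower, and so were the soluble guanylate cyclase subunits Gucy1a1 (-2.04 ± 0.077) and Gucy1b1 (-1.54 ± 0.10). Fabp7, a fatty acid binding protein, had 9.17 and 11.9 CPM in members, against 40.7 and 41.4 CPM in the rest (-1.99 ± 0.11), and Tagln2 changed by -1.60 ± 0.08. Gal rested on 7 and 40 UMIs in members, changed by -3.46 in replicate 1 and -1.41 in replicate 2, and was not called by DESeq2 (adjusted p = 0.21).

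Notch genes were lower where they were called. Of 10 tested, 6 were lower and none higher, with a median of -1.24. The receptor Notch1 had 10.9 and 12.6 CPM in members, against 33.99 and 30.03 CPM in the rest (-1.47 ± 0.12, adjusted p = 1.6e-11). The targets Hes1 (85.3 and 65.2 CPM in members, against 170.1 and 132 CPM in the rest; -1.01 ± 0.053), Heyl (-2.25 ± 0.22), Nrarp (-3.31 ± 0.38), Hey1 (-1.54) and Hey2 (-2.06) were lower, and the ligands Jag1 and Jag2 were not called (-0.18 and 0.59). After thinning every cell to 5000 UMIs, 3 of 8 were lower (Notch1, Hes1 and Heyl).

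Pericyte-type genes, which mark the contractile cells on small vessels, moved with these values. Of 7 tested, 6 were lower in members. Acta2 had no UMI in members and 1461 UMIs in the rest, at least 151.1-fold lower against a floor of 3 UMIs over both libraries. Rgs5 had 3 UMIs in members and 1605 in the rest, 166-fold lower with a 95% counting interval of 56.7 to 806. With the 62 and 58 cells that carried at least 3 UMIs of these genes left out of the rest, 5 of the 10 Notch genes (Notch1, Hes1, Hey1, Heyl and Nrarp) and 10 of the 12 cartilage genes were still lower, and 392 genes were called higher and 306 lower in all. This alternative was chosen after the values were seen.

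Cell cycle RNA was seen in fewer members than other mesenchymal cells. After thinning each cell to 2000 UMIs, 37.5% (95% interval 32.7% to 42.4%) and 33.7% (29.1% to 38.5%) of members had at least 2 UMIs of a 26-gene cell cycle list, against 48.7% (45.8% to 51.6%) and 48.7% (46.3% to 51.2%) of the rest. The shallower cells left out were 0 and 1 members and 42 and 45 cells of the rest. Without thinning the shares were 88.3% and 80.5% in members and 86.6% and 82.3% in the rest, higher in members in replicate 1 and lower in replicate 2. In the test of sums 10 of the 26 genes were lower and none higher, with a median of -0.52. Ccna2, cyclin A2, had 47.2 and 41.8 CPM in members, against 75.1 and 74.3 CPM in the rest (-0.74 ± 0.058). Mki67 (-0.58) and Top2a (-0.45) stayed under the fold asked for. Among cells of 10000 to 30000 UMIs 19 of the 26 were called lower. After thinning every cell to 5000 UMIs, with members chosen again on the thinned counts, 22 were.

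Members were next set against the cells just outside the rule. Against Osr1-only cells, 241 of 12179 tested genes were called (1.98%): 138 (1.13%) were higher and 103 (0.846%) lower in members. Ogn had 70.6 and 63.4 CPM in members, against 15.8 and 21 CPM in Osr1-only cells (1.90 ± 0.12, adjusted p = 7.8e-07). Tmem108 had 27.2 and 27.3 CPM in members, against 8.39 and 7.52 CPM in Osr1-only cells (1.79 ± 0.16), Crabp2 had 216 and 229 CPM in members, against 81.3 and 92.8 CPM in Osr1-only cells (1.38 ± 0.082), and Dab2 had 226 and 214 CPM in members, against 88.6 and 84.9 CPM in Osr1-only cells. S100a10 (1.48), Vav3 (1.37), Kcnk2 (1.31) and Nefl, the light neurofilament gene (1.37), were also higher. All member values of these genes lay above those of the Osr1-only cells, which largely follows from picking called genes.

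Some genes were lower in members than in Osr1-only cells. Penk, the proenkephalin gene, had 75.4 and 74 CPM in members, against 193 and 226 CPM in Osr1-only cells (-1.46 ± 0.087, adjusted p = 7.8e-07). Col1a1 had 18.9 and 33.5 CPM in members, against 87.9 and 89.1 CPM in Osr1-only cells (-1.78 ± 0.12), and Gucy1a1 (-1.53), Rflnb (-1.40), Itih5 (-1.21) and Ppfibp2 (-1.08) were lower too. Notch1 (-1.24 ± 0.14) and Hes1 (-1.13 ± 0.08) were 2 of the 4 Notch genes called, of 8 tested. Of 11 cartilage genes, 2 were lower here (Col9a1 and Col9a3). Of 27 fibrillar matrix genes, 5 were higher (Col12a1, Col14a1, Fbn2, Ogn and Loxl1) and 2 lower (Col1a1 and Fbln1). Of 12 arachnoid genes, Aldh1a2 and Crabp2 were higher and Zic1 lower, with a median of 0.18. DESeq2 called 45 genes higher and 28 lower in this comparison.

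Against Aard/Wnt6-only cells, 6.39% of 11920 tested genes were called: 308 (2.58%) were higher and 454 (3.81%) lower. Kcnk2 had 32.2 and 37.9 CPM in members, against 6.29 and 8.15 CPM in Aard/Wnt6-only cells (2.24 ± 0.17, adjusted p = 1.4e-07), Cavin2 had 42.6 and 50.5 CPM in members, against 10.3 and 10.7 CPM in Aard/Wnt6-only cells (2.11 ± 0.14), and Dab2 had 226 and 214 CPM in members, against 63.6 and 48 CPM in Aard/Wnt6-only cells. Tmem108 (2.13), the stress factor Nupr1 (1.65), Ranbp3l (1.61), Ppp1r1a (1.61) and the synaptotagmin Syt1 (1.56) were higher. Pericyte genes again stood at the other end, with Rgs5 at 0.141 and 0.354 CPM in members, against 102 and 68.5 CPM in Aard/Wnt6-only cells, and Acta2, Kcnj8 and, outside that list, Ndufa4l2 were also at or near 0 in members. Igfbp7 (-3.75), Gal (-3.44), Rasgrp2 (-3.19) and Coch (-2.42) were lower. Of 26 cell cycle genes 17 were lower, of 11 cartilage genes 8 and of 8 Notch genes 6. The Aard/Wnt6-only cells were deeper than members (median 17941 and 13536.5 UMIs). DESeq2 called 78 higher and 109 lower, and thinning to 5000 UMIs left 89 and 115.

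**Figure D2:**
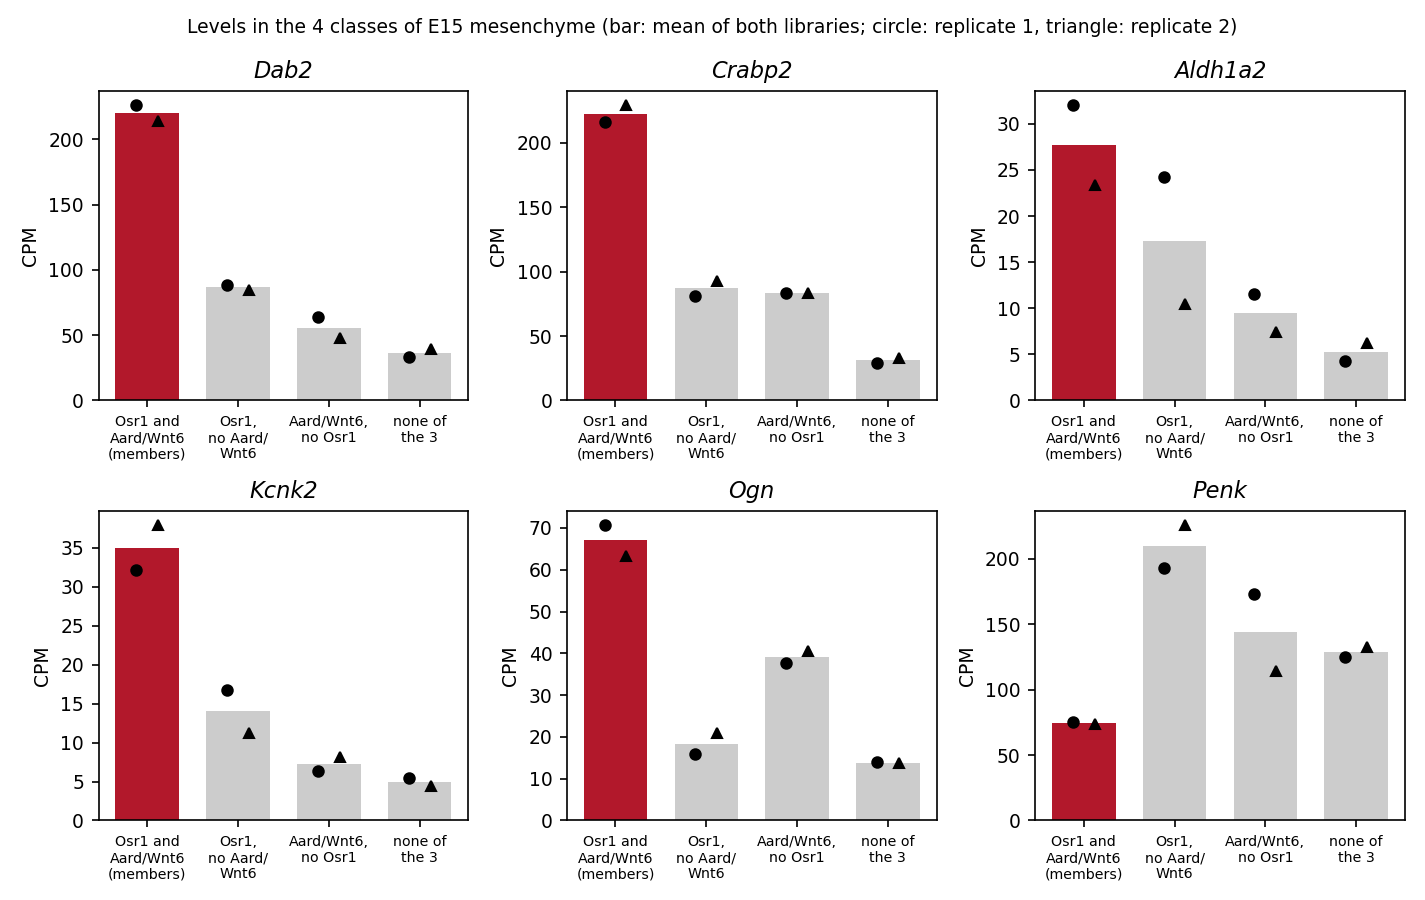
Bars give the mean CPM of 6 genes over both E15 libraries in members and in the 3 other classes of mesenchyme set by the rule's genes, with circles for replicate 1 and triangles for replicate 2. Dab2 and Crabp2 are highest in members (over 200 CPM) and lowest in cells with none of the 3 genes, while Penk is lowest in members.

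Levels of Dab2, Crabp2 and Aldh1a2 are given here for the 4 classes. Dab2 had 226 and 214 CPM in members, 88.6 and 84.9 in Osr1-only cells, 63.6 and 48 in Aard/Wnt6-only cells and 33 and 39.7 in the 647 and 937 cells with none of the 3 genes. No class overlapped its neighbour in this order. This is a description, since Dab2 was named as a marker from the same libraries, and how many other genes do so was not counted. Crabp2 had 216 and 229 CPM in members, 81.3 and 92.8 in Osr1-only cells, 83.7 and 83.1 in Aard/Wnt6-only cells and 29.4 and 33.2 in cells with none, and its 2 middle classes overlapped. Aldh1a2 overlapped between members (32 and 23.4 CPM) and Osr1-only cells (24.2 and 10.4 CPM) when libraries were ignored, but was higher in members within each library.

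Levels of several genes were also set out by the amount of Osr1 RNA in a cell. Among cells thinned to 5000 UMIs, those with 0, 1, 2 and at least 3 Osr1 UMIs had 68.9, 128, 218 and 348 CPM of Dab2 in replicate 1 and 60.0, 143, 181 and 323 CPM in replicate 2. Bmp4 had 27.6, 49.8, 68.7 and 121 CPM in replicate 1 and 26.8, 45.2, 74.3 and 108 CPM in replicate 2. Aard had 43.1, 90.8, 135 and 233 CPM in replicate 1 and 50.2, 85.8, 168 and 214 CPM in replicate 2. Aldh1a2 had 11.2, 24.9, 48.5 and 33.3 CPM in replicate 1 and 9.78, 12.3, 19.5 and 40.0 CPM in replicate 2, so it was not higher at each step in replicate 1. Wnt6 was detected in 2.85% (95% interval 1.955% to 3.995%) and 2.22% (1.504% to 3.16%) of cells with no Osr1, and in 9.26% (6.70% to 12.4%) and 8.74% (6.49% to 11.4%) of cells with Osr1. These are descriptions over cells of the same library, with no test.

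**Figure D3:**
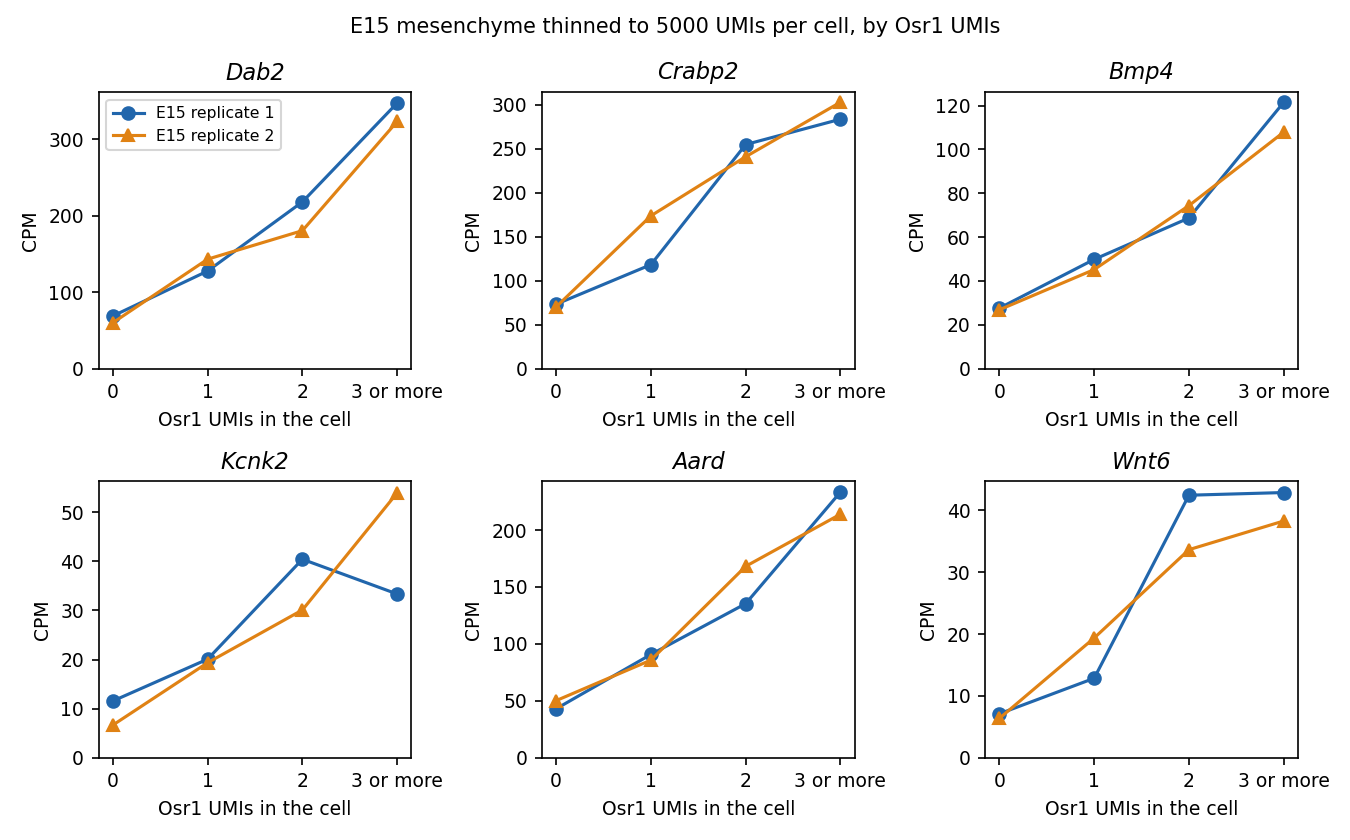
Each panel gives the CPM of 1 gene in E15 mesenchymal cells thinned to 5000 UMIs, grouped by the number of Osr1 UMIs in the cell; circles and triangles are the 2 libraries. Dab2, Crabp2, Bmp4 and Aard are higher at each step in both libraries, while Kcnk2 in replicate 1 is highest (40.4 CPM) at 2 Osr1 UMIs. Aldh1a2 is not drawn.

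Likeness to the rule was measured as the share of members with a UMI of a gene over the share in the rest, at 5000 UMIs per cell, over 147 and 198 members and 1409 and 1690 other cells. The 10 most alike of the genes seen in at least 10% of members were Fyb (14.3% and 7.07% of members and 1.35% and 1.66% of the rest, a ratio of 7.11 between the means, with the lower library under 10%), Tmem108 (4.01), Kcnk2 (3.56), Olfml2a (3.27), Cacnb2 (3.20), Ogn (3.04), Dlk1 (2.97), Cacna2d3 (2.95), Mt2 (2.83) and Aldh1a2 (2.79). Since the minimum was set on members, where these genes are high, the ratios are a description. Fyb, an adaptor protein of immune cells, lies next to Dab2 on chromosome 15, with only C9 between them in the annotation (Dab2 at chr15:6299788-6440715, Fyb at chr15:6522796-6665608, GRCm38.p6). Fyb had 17.5 and 12 CPM in members, against 2.58 and 2.73 CPM in the rest (2.47 ± 0.19).

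Members were not uniform. Those with Wnt6 but no Aard (23 and 19 cells) were compared with those with Aard but no Wnt6 (283 and 300 cells), and 146 of 10631 tested genes were called (1.37%): 66 (0.621%) were higher and 80 (0.753%) lower. Mybpc1, a myosin binding protein, had 57.5 and 52.3 CPM in Wnt6-only members, against 11.2 and 14.3 CPM in Aard-only members (2.16 ± 0.37, adjusted p = 3.2e-06). Vav3 had 65.8 and 76.4 CPM in Wnt6-only members, against 15.2 and 21.5 CPM in Aard-only members (1.99 ± 0.33), and Tmem108 had 54.8 and 68.4 CPM in Wnt6-only members, against 8.52 and 17.7 CPM in Aard-only members (2.31 ± 0.36). Sostdc1, a secreted antagonist of BMP and Wnt signals, had 38.4 and 20.1 CPM in Wnt6-only members, against 3.04 and 6.29 CPM in Aard-only members (2.79 ± 0.58). Igfbp3 (2.42), Enpp3 (2.16), Col18a1 (1.87) and the sodium leak channel Nalcn (1.71) were higher as well.

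Other genes were lower in Wnt6-only members. Mgp had 13.7 and 24.1 CPM in Wnt6-only members, against 221 and 152.1 CPM in Aard-only members (-3.39 ± 0.32, adjusted p = 9e-23), and Ogn had 13.7 and 8.04 CPM in Wnt6-only members, against 70.4 and 70.9 CPM in Aard-only members (-2.61 ± 0.43). Cemip, which degrades hyaluronan, Postn, Col9a3, Col1a1, Nr4a1 and Csmd3 were lower in Wnt6-only members, with log2 changes of -4.26, -2.998, -2.82, -2.62, -2.69 and -2.57. Of 27 fibrillar matrix genes, 3 were lower (Col1a1, Postn and Ogn) and 1 higher (Dcn). Of 15 genes that respond to tissue dissociation, 6 were lower in Wnt6-only members (Fos, Junb, Egr1, Ier3, Btg2 and Socs3), with a median of -0.63, and 3 of 4 haemoglobin genes were lower, with a median of -4.54. The part of these in the result was not tested. This comparison rests on 42 Wnt6-only cells. DESeq2 called 6 genes higher and 4 lower, a fit without the library block 33 and 16, and thinning to 5000 UMIs left 0 higher and 1 lower (142 and 176 at an unadjusted p under 0.05). When all 120 and 111 members with Wnt6 were set against those without it, 267 genes were higher and 379 lower. Of the 16 genes named here all but Ogn were called there too, and Ogn changed by -0.24 (edgeR, adjusted p = 0.37). Sostdc1 (1.47) and Cemip (-0.80) changed less there than between the smaller sets. That alternative was chosen after the values were seen.

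Among clusters of the E15 mesenchyme, made without the genes of the rule, clusters 9 and 3 were rich in members, but most members lay elsewhere. Of 18 clusters, cluster 9 held 103 and 140 cells, of which 86.4% and 81.4% were members. It held 22.1% and 27.7% of all members, and cluster 3, where 58.1% and 47.2% of cells were members, held 17.9% and 18.7%. The other members, the larger part in each library, lay in small shares over 14 further clusters, and clusters 4 and 16 held none. The rule's own genes, which did not enter the clustering, differed between the leading clusters: Wnt6 had 127 CPM in cluster 9 and 6.76 CPM in cluster 3, Aard 333 and 179.9 CPM, and Osr1 306 and 328 CPM. The highest Wnt6 level of any other cluster was 26.6 CPM, in cluster 13.

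**Figure D4:**
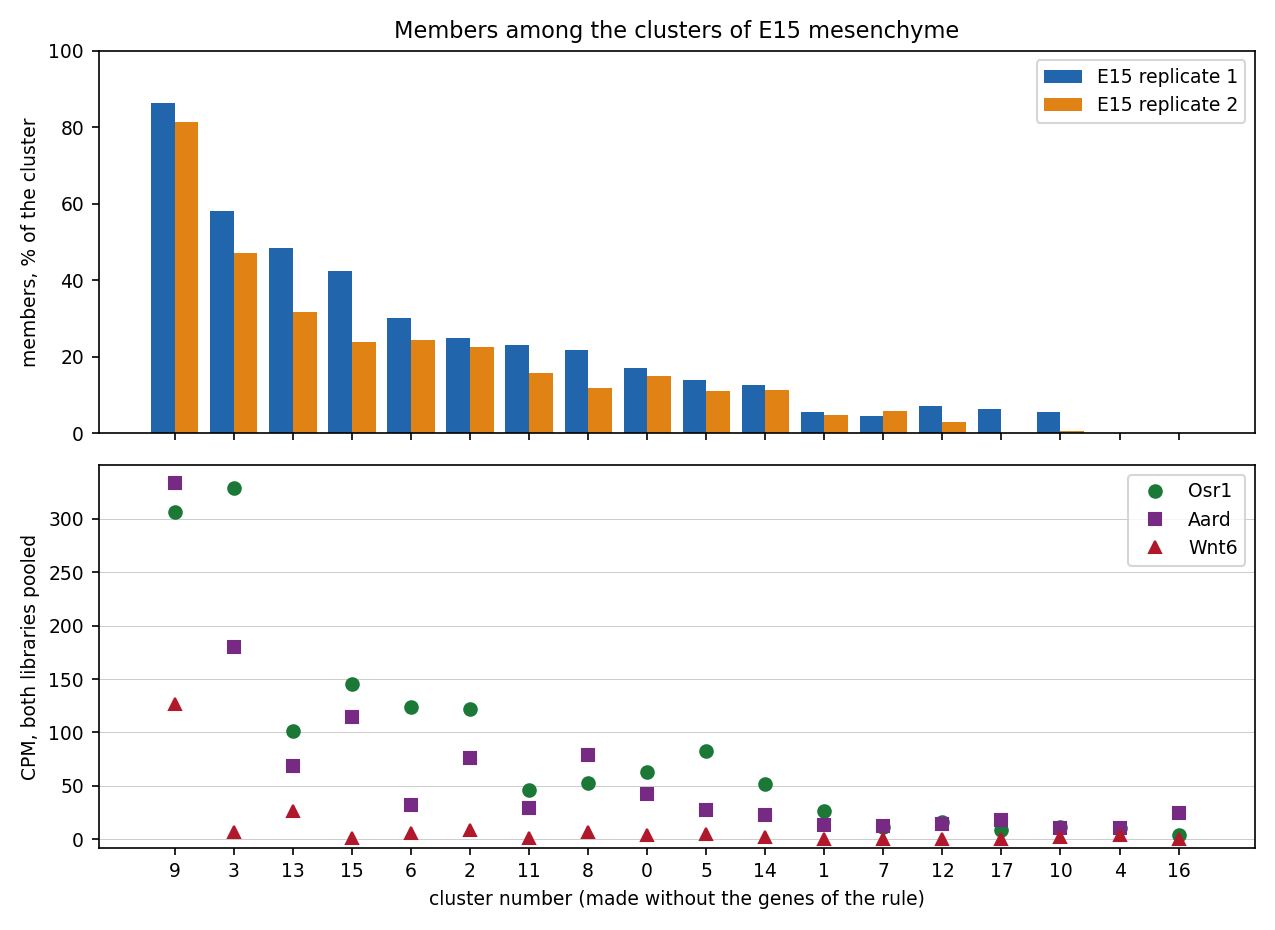
The upper panel gives the share of each cluster's cells that are members in both E15 libraries, and the lower panel the CPM of Osr1, Aard and Wnt6 in the pooled cluster, in the order of the upper panel. Cluster 9 stands first with over 80% members and has the highest Wnt6 level (127 CPM), and cluster 16 holds no members.

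The same rule was applied to P7, where 692 of 4233 mesenchymal cells (16.3%, 95% interval 15.2% to 17.5%) met it. P7 has 1 library, so its values carry no replicate error. Osr1 had 164 CPM in the P7 cells that met the rule and 9.01 CPM in the other P7 mesenchyme, Aard 264 and 135 CPM, and Wnt6 91.3 and 11.8 CPM. Of the genes called higher in E15 members, 412 could be fitted at P7, and 160 of these (38.8%) were at least 1.5-fold higher there too, against 8.57% of all 13139 genes fitted. Another 82 (19.9%) were at least 1.5-fold lower at P7, against 14.9% of all genes. Of 440 genes called lower, 291 (66.1%) were at least 1.5-fold lower at P7, and 42 (9.55%) were at least 1.5-fold higher.

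Single genes of the E15 comparison were higher at P7 too, or were not. Crabp2 had 87.1 CPM in the P7 cells that met the rule and 18.3 CPM in the other P7 mesenchyme, Aldh1a2 121 and 15.5 CPM, Kcnk2 267 and 47.2 CPM, and Cavin2 624 and 175 CPM. Of the other retinoid genes higher at E15, Stra6 had 15.4 and 7.72 CPM, and Crabp1 was almost absent at P7, at 0.284 and 1.67 CPM. Dab2 was nearly level at P7, at 58.7 and 52 CPM. Ogn had the opposite order from E15, at 74.9 and 157 CPM. The tests of these differences between the ages stand with the results set apart for a closer look.

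**Figure D5:**
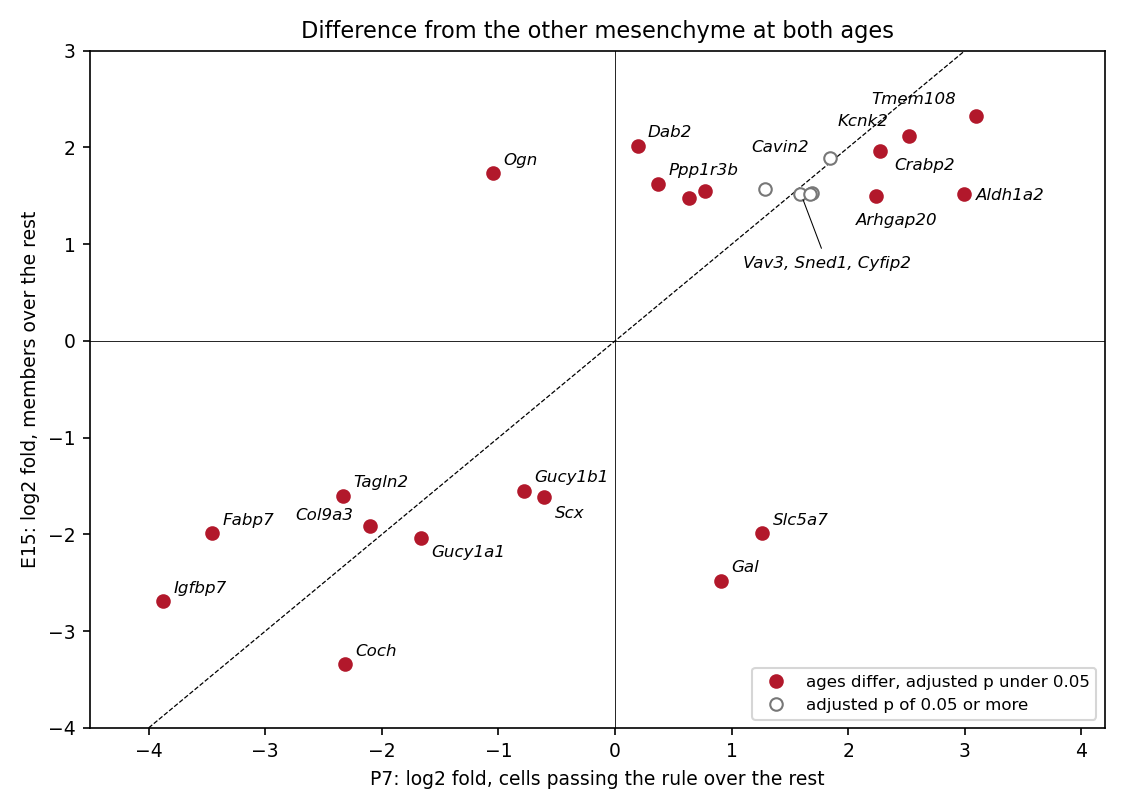
Each point is 1 of the genes with the largest called change at E15, with its log2 fold change at P7 on the x axis and at E15 on the y axis; filled points differ between ages at an adjusted p under 0.05, the dashed line marks equal changes, and Acta2 and Rgs5, with 3 or fewer UMIs in E15 members, are not drawn. Aldh1a2 and Kcnk2 are higher at both ages, Dab2 only at E15 by more than 1.5-fold, and Ogn, Gal and Slc5a7 change sides.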

How the data were processed

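Per the labels, whole cochleae were dissociated with papain and thermolysin, sorted against debris and sequenced as droplet (10x Chromium 3′) libraries. The deposited files hold the authors' UMI counts per gene and cell, made with Cell Ranger on mm10 per the file headers and the submitters' processing notes. The headers name software versions 3.1.0 and 6.1.2, so the files were not all made with the same version. The part of this in the comparison of ages was not tested. The values are raw counts, with no normalization. Total counts were 93829443 UMIs for P7 and 46530036 and 44304364 UMIs for E15.

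Cells were filtered and chosen as given above, and predicted doublets were kept in the main result. Counts were summed per library and cell group and tested with edgeR 4.0.16 (R 4.3.3; TMM scaling, low-count filter, quasi-likelihood test, library as block, Benjamini-Hochberg adjustment over all genes). The block is the library, since both cell groups come from the same one. Nothing says that libraries came from separate animals. The p-values measure only how much the difference between cell groups varied between these libraries, largely pooled over genes. That variation may be technical. Clusters were made with scanpy 1.11.5 without the rule's genes. Named genes are those with the largest called fold in each direction among genes that passed a level minimum, plus called members of the gene lists and a few uncalled ones with the highest level. The members and the lists were chosen with earlier results of these data known. Simulated counts with 200 changed genes gave recovery of 86% at a fold of 2 and 92% at a fold of 4 for members against the rest, and of 28% and 63% for Wnt6-only against Aard-only members. The tests of age, of all Wnt6 members and without pericyte-type cells were added after the values were seen. The libraries shared 3 barcodes between the E15 pair, none of them a member in both, and 6 between each E15 library and P7. Antisense and overlapping genes may share reads. A few list genes are not reported here.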

Additional observations from a re-analysis of the deposited data

Results flagged for a closer look

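The change between cells that met the rule and the other mesenchyme was compared between P7 and E15 in 1 edgeR fit, with an interaction term. The lone P7 library was assumed to vary like the E15 pair, the P7 mesenchyme may hold other cells than the E15 mesenchyme, and the genes were chosen for their E15 change, Dab2 also as a marker named from these libraries. Of all 13139 genes fitted, 24.7% passed an adjusted p of 0.05 for this difference, and 21 of the 27 genes with the largest E15 changes did. Values are the log2 change at P7 minus that at E15.

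In 3 genes the direction differed. Ogn changed by -1.05 at P7 and 1.74 at E15, a difference of -2.79 ± 0.084 (SE; edgeR, adjusted p = 2.6e-16). Gal changed by 0.91 at P7 and -2.48 at E15 in this fit (difference 3.39 ± 1.1), and Slc5a7 by 1.26 and -1.99 (difference 3.25 ± 0.38). Gal rested on 10 UMIs in the P7 cells that met the rule.

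Dab2 (-1.82 ± 0.10), Ppp1r3b (-1.26 ± 0.17), Ppp1r1a (-0.85 ± 0.10) and S100a10 (-0.78 ± 0.094) had a smaller positive change, or none, at P7. The Dab2 difference rests on the E15 excess that made it a marker, so it is a description. Aldh1a2 (1.46 ± 0.14), Tmem108 (0.77 ± 0.27), Arhgap20 (0.74 ± 0.063), Kcnk2 (0.40 ± 0.12) and Crabp2 (0.31 ± 0.10) had a larger positive change at P7. Among genes lower in E15 members, Igfbp7 (-1.19 ± 0.21), Fabp7 (-1.47 ± 0.19), Tagln2 (-0.73 ± 0.17) and Col9a3 (-0.19 ± 0.058) fell further at P7, and Coch (1.02 ± 0.11), Scx (1.01 ± 0.14), Gucy1b1 (0.76 ± 0.18) and Gucy1a1 (0.38 ± 0.12) fell less. Acta2 differed by 6.73 ± 1.75, a value that depends on the prior count because E15 members had no UMI of it.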

How the results depend on the processing

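Counts of called genes depended on the test and on depth. With DESeq2, members against the rest gave 164 higher and 158 lower genes (main 436 and 455), members against Osr1-only cells 45 and 28 (main 138 and 103), members against Aard/Wnt6-only cells 78 and 109 (main 308 and 454), and Wnt6-only against Aard-only members 6 and 4 (main 66 and 80). With cells thinned to 5000 UMIs and the groups chosen again, 246 genes were higher against the rest. Against Osr1-only cells 54 were higher and 62 lower, and against Aard/Wnt6-only cells 89 and 115. Between the kinds of member these were 0 and 1. A test against a fold of 1.5 gave 163 and 140 against the rest, and cells of 10000 to 30000 UMIs gave 165 lower genes against Osr1-only cells. With all Wnt6 members, 267 were higher and 379 lower.

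Without the library as a replicate block, 337 genes were higher and 350 lower against the rest, 97 and 74 against Osr1-only cells, 243 and 368 against Aard/Wnt6-only cells, and 33 and 16 between the kinds of member.

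The mean share of members, 22.3%, was 9.97% after thinning and 15.4% with at least 2 Osr1 UMIs, and ranged from 19.9% to 24.7% over the libraries. The difference in cycling cells was -13.1 percentage points, and 0.00671 points without thinning. The leading cluster held a mean of 24.9% of members, and 33.4% with predicted doublets left out, ranging from 22.1% to 27.7% over the libraries. Of 710 values of named genes under other settings, 668 kept their call, 42 lost it and 0 reversed. Genes with no value in a setting were not counted. After thinning, 51 of the 75 named results kept their call and 13 lost it. Calls over all genes recurred less often. After thinning to 5000 UMIs, 36.6% of the genes called against the rest were called again. The share was 32.8% against Osr1-only cells, 20.1% against Aard/Wnt6-only cells and 0.685% between the kinds of member. With 1 library left out no test is possible, so each library's own value was used. Genes of a few UMIs per library, and the 42 Wnt6-only members, set the limit of depth.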

Other observations

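Genes higher in members often lay next to one another. Of 425 such genes placed on the genome, 92 (21.6%) had an adjacent tested gene that was also called higher, against 821 of 12861 tested genes (6.38%). Examples, chosen after their values were seen, were Dab2 and Fyb on chromosome 15 and Helb and Irak3 on chromosome 10 (Helb at chr10:120083608-120113010, Irak3 at chr10:120141648-120202130, GRCm38.p6), where Irak3, a kinase-like inhibitor of Toll-like receptor signalling, changed by 1.45 and Helb, a DNA helicase, by 1.25. Some adjacent pairs overlap or are antisense and may share reads, and this was not tested.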
